A study of Homo sapiens with 480 samples.

Results

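Phorbol 12-myristate 13-acetate (PMA) was compared with its vehicle DMSO in J-Lat A2 cells, with single cells of both treatments sorted onto the same 3 plates. J-Lat A2 is a clone of the human T cell leukaemia line Jurkat with an HIV-derived construct in its genome that is silent in most cells; the counted feature HIVmini is taken to be that construct. Cells had been given either 1 ug/mL PMA or 0.1% v/v DMSO for 24 h. All J-Lat A2 wells of plates P2769, P2770 and P2771 with either label were taken, except those with fewer than 500 detected genes or a total under 0.1 of the plate's median. This left 79 of 81 wells with PMA and 35 of 36 with DMSO, out of 410 wells that pass among the 480 of the whole series. Parental Jurkat cells on the same plates, 36 wells with PMA and 18 with DMSO, were used to ask where the response of the clone differed and as a background for HIVmini, which they lack. A2 is 1 clone, so integration site and clonal background are those of a single line, and the labels do not say whether the plates came from separate cultures. The p-values therefore measure the spread between plates, which may be technical.

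PMA mimics diacylglycerol, the lipid messenger that T cells make beneath an engaged antigen receptor, and so switches on diacylglycerol-dependent protein kinase C isoforms and RasGRP proteins without any receptor signal. Downstream, the ERK pathway drives the AP-1 and EGR factors and NF-kB is released, whereas the calcium arm that activates NFAT is not directly engaged. HIV borrows NF-kB and AP-1 sites in its long terminal repeat, and PMA has long been used to wake latent proviruses in T cell lines.

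Counts of the kept wells were summed by treatment and plate, which gave 3 sums with PMA (26, 27 and 26 wells) and 3 with DMSO (12, 12 and 11 wells). The sums held 11231351 to 13663432 counts with PMA, against 5997580 to 7558798 with DMSO. The median well held 474569 counts and 4484 detected genes with PMA, against 550336 counts and 4684 genes with DMSO. Mitochondrial genes gave a median of 3.96% of counts with PMA and 3.66% with DMSO. Of the T cell markers 9 of 10 had a count with PMA and 8 of 10 with DMSO, and CD4 was at 0 in both. Their summed level was 10618 to 13750.4 CPM (counts per 1000000, TMM-normalised) per plate with PMA, against 2649 to 3813 CPM with DMSO. TRBC1 alone stood at 7809 to 10237 CPM with PMA and 1134 to 2416 CPM with DMSO, so most of the rise of the sum is that of this gene. Of the B cell list 1 of 7 markers had a count in either treatment (CD79A, 45.2 to 109.9 CPM with PMA and 39 to 105.2 CPM with DMSO), and of the erythroid and megakaryocyte list 0 of 11.

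Over the whole transcriptome, 292 of 10031 tested genes (2.91%) changed with PMA, at an adjusted p under 0.05 in edgeR's quasi-likelihood test with plate as a block and Benjamini-Hochberg adjustment. Those that rose were 1.55% of the tested genes and those that fell 1.37%. Changes upward were larger: the median log2 change was 1.97 among genes that rose and -1.15 among those that fell, and 76 genes rose by more than 4-fold while 16 fell by more than 4-fold. Every one of the 292 genes moved the same way on all 3 plates, and for 284 the PMA and DMSO sums did not overlap. The genes were called on these same sums, so such agreement follows largely from the call. Over all tested genes, 13.9% had all PMA sums above all DMSO sums and 9.33% had them below. The number of calls depended on each plate, with 1.07% of tested genes called without P2769, 0.297% without P2770 and 0.841% without P2771, of which 96.4%, 96.7% and 96.5% were among the 292. At an unadjusted p under 0.05 stood 1560 genes. Limma with equal weight for each cell, in place of the summed counts, called 2 genes.

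**Figure D1:**
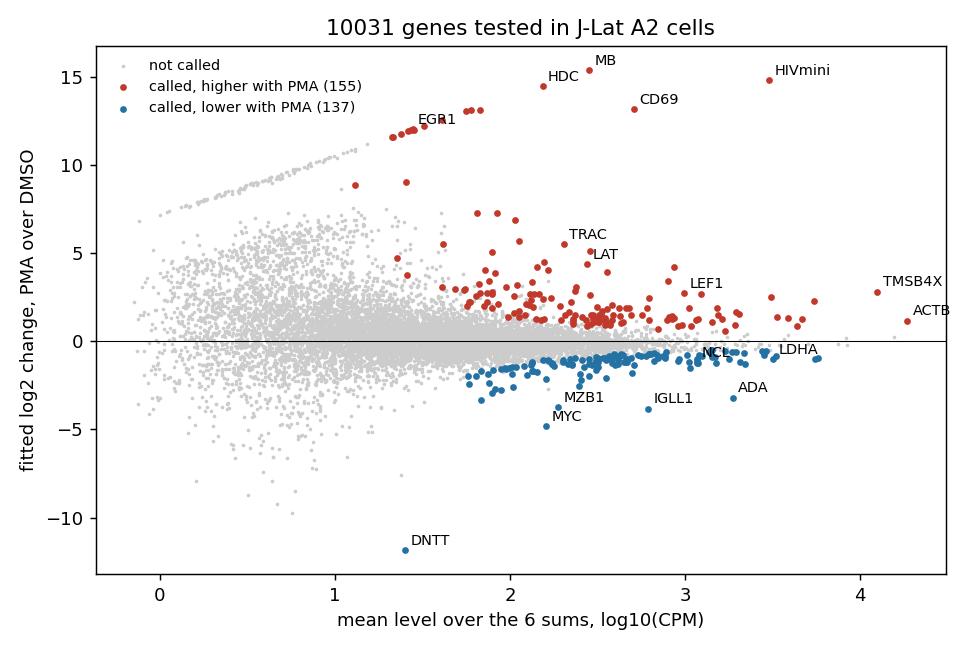
Fitted log2 change (PMA over DMSO, vertical axis) against the mean level over the 6 sums (log10 CPM, horizontal axis) for the 10031 tested genes, with the 1.55% that rose in red and the 1.37% that fell in blue. Points on the rising line at the upper left had no DMSO count, so their height depends on the prior count of the fit and is no measured fold; DNTT at the bottom had no PMA count.

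The integrated construct was close to silent with DMSO and abundant with PMA. HIVmini stood at 6663, 4625 and 6826 CPM with PMA, against 0.136, 0.45 and 0 CPM with DMSO. All PMA sums lay above all DMSO sums, with a log2 change of 14.79 ± 0.41 (SE, edgeR adjusted p = 8.36e-05). That change rests on 4 counts in all DMSO cells together, and the SE, derived from the F statistic, is no measure of their counting error. Reads were found in 55 of 79 cells with PMA (69.6%) and 4 of 35 with DMSO (11.4%), but the highest DMSO cell was at 2.07 CPM. At 100 CPM or more were 49 of 79 cells with PMA (62%, 95% Clopper-Pearson interval 50.4 to 72.7%), against 0 of 35 with DMSO (0 to 10%). By plate the share was 57.7%, 63% and 65.4% on P2769, P2770 and P2771. Among PMA cells with any read the plate medians were 8610.4, 1907 and 7553 CPM, the highest cell reached 33111 CPM, and the 3 highest cells held 16.6% of all PMA counts of the feature. Jurkat cells, which lack the construct, gave 1 HIVmini count in 36 PMA cells and 2 in 18 DMSO cells, so the DMSO share in J-Lat A2 was not distinguishable from background at this depth. Intervals of this kind cover counting error only and leave out the spread between plates, because cells of 1 plate are not replicates. Amplified reads were also not collapsed to molecules by identifiers.

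**Figure D2:**
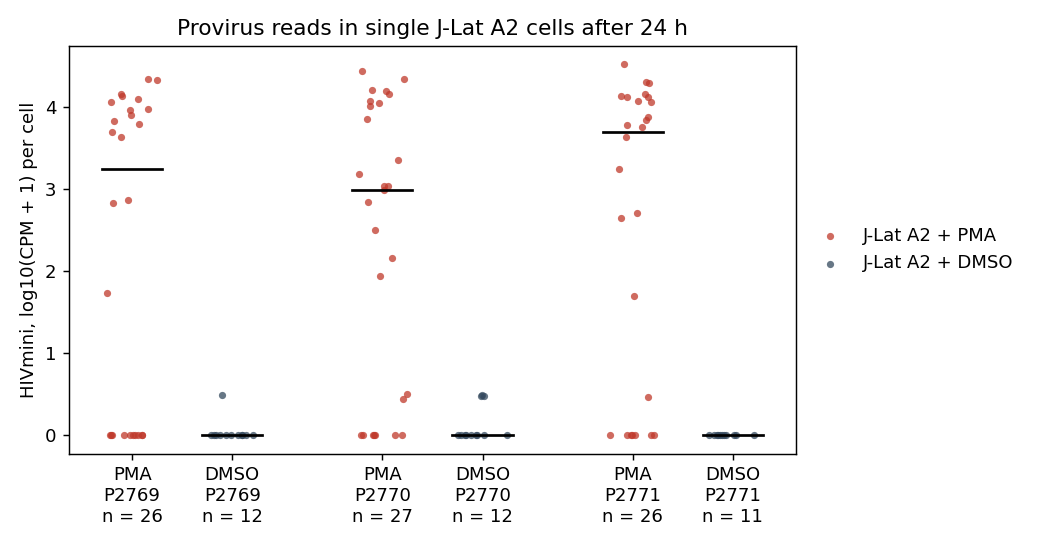
HIVmini level per cell, log10(CPM + 1), for each plate with PMA (red) left of DMSO (dark blue); each point is a cell and the bar is the median over all kept cells. PMA cells split between values near 0 and values far above 100 CPM on each plate, with 62% at 100 CPM or more, whereas the highest DMSO cell was at 2.07 CPM.

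A pair of activation genes rose with PMA and were at or near 0 with DMSO. CD69 (chromosome 12, 9752486 to 9760901, minus strand), the C-type lectin that marks recently activated lymphocytes, stood at 1215, 914 and 942 CPM with PMA, against 0, 0 and 0.32 CPM with DMSO. Only 2 counts were found with DMSO, so the ratio was 9935-fold, with a 95% counting interval of 2750.0 to 82036. Both counts came from 1 cell and the interval covers counting error on these plates alone. In 59 further J-Lat A2 cells with DMSO, on plates P2449 and P2458 that held no PMA cells, CD69 stood at 4.73 and 9.27 CPM (not TMM-normalised) with reads in 7 cells. Such a ratio or bound therefore speaks for the DMSO cells of the same plates only. On the compared plates reads of CD69 were seen in 72 of 79 cells with PMA and 1 of 35 with DMSO. IL2RA (chromosome 10, 6010689 to 6062370, minus strand), the alpha chain that gives the interleukin-2 receptor its high affinity, stood at 144.2, 55.6 and 157.99 CPM with PMA, against 0 CPM on each plate with DMSO. The bound is at least 749-fold higher with PMA, taking a floor of 3 counts over the whole DMSO group, as for every such bound here. Reads of IL2RA were seen in 40 of 79 cells with PMA and 0 of 35 with DMSO. For both receptors all PMA sums lay above all DMSO sums. Of 22 listed activation surface markers 11 were tested. Of those, these 2 rose and 0 fell, against 1.55% that rose and 1.37% that fell over all tested genes. Both entered the test through their PMA sums, being at or near 0 with DMSO, so the share does not set the list apart. The common gamma chain IL2RG averaged 779 ± 100.1 CPM with PMA and 432 ± 67.9 CPM with DMSO (SD, n = 3 plates each) without passing the test (edgeR adjusted p = 0.0686), and the transferrin receptor TFRC did not pass either, at 114.2 ± 60.5 CPM with PMA and 206 ± 45.6 CPM with DMSO.

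Of the AP-1 and EGR immediate early factors 3 of 18 tested members rose and 0 fell, against 1.55% and 1.37% over all tested genes. The median log2 change of the list was 4.97, against 0.17 over all tested genes. Of the 28 listed members 11 had no DMSO count. Those of them that were tested, such as EGR1, EGR2 and FOS, entered the test through their PMA sums alone. Their fitted change depends on the prior count, so neither the median nor the share of calls sets the list apart. EGR1 (chromosome 5, 138465490 to 138469315, plus strand), a zinc finger factor induced by ERK signalling, stood at 69.5, 59.3 and 38.2 CPM with PMA, against 0 CPM on each plate with DMSO. That is at least 364-fold higher, and reads were found in 72 of 79 cells with PMA and 0 of 35 with DMSO, so a low level was spread over most cells. In the DMSO cells of P2449 and P2458 EGR1 stood at 0.254 and 1.14 CPM. Thinned to 100000 reads per cell, which left out 2 PMA cells, the share with an EGR1 read was 77.9% with PMA, against 0% with DMSO. EGR2, its close relative, stood at 56.9, 70.6 and 29.8 CPM with PMA, against 0 CPM on each plate with DMSO, at least 351-fold higher, but in 22 of 79 cells with PMA and 0 of 35 with DMSO. IER2, a further immediate early gene, stood at 606, 704.01 and 705.8 CPM with PMA, against 59.3, 44.4 and 30.1 CPM with DMSO. With a log2 change of 3.96 ± 0.27 (SE, edgeR adjusted p = 0.00193), IER2 was the member that also passed without each plate in turn. FOS, a subunit of AP-1, averaged 18.3 ± 9.56 CPM with PMA and 0 ± 0 CPM with DMSO and did not pass (edgeR adjusted p = 0.118), and JUN was too low to be tested.

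The promoters of 3 genes that rose are shown because each holds a motif of a factor downstream of PMA. They are the 250 bases before the first listed RefSeq start (GRCh38.p14), on the strand of the gene, 5′ to 3′. Capitals mark CArG boxes, the element bound by serum response factor, in EGR1, the nearer of the pair 83 bases before the start. In IL2RA they mark a stretch that matches the NF-kB motif on both strands, at overlapping positions (211 and 210 bases before the start). Next to it they mark a CArG box, and in LAT an AP-1 motif, TGANTCA (78 bases before the start).
EGR1, chr5:138465229-138465478, plus strand: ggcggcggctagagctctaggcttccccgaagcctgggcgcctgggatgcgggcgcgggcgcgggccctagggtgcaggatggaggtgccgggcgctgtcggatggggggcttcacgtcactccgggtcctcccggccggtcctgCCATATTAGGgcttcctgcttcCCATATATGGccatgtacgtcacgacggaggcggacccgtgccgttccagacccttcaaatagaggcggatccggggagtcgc
IL2RA, chr10:6062368-6062617, minus strand: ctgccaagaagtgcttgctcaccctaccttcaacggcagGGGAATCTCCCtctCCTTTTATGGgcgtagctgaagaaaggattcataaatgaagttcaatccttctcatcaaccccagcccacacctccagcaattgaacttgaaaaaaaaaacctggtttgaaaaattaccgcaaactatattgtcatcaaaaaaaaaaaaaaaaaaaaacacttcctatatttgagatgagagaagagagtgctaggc
LAT, chr16:28984553-28984802, plus strand: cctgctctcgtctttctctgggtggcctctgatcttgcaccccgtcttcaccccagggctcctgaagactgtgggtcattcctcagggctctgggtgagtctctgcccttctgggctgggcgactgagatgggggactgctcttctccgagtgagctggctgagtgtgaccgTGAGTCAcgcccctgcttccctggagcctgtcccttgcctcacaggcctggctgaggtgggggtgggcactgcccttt
The table held a promoter for 77.4% of the genes that rose, 84.7% of those that fell and 81.7% of all tested. A CArG box on either strand was found in 6.67% of the promoters of genes that rose and 2.59% of those that fell, against 1.01% of all tested. The 8 genes that rose and hold one were ACTG1, ARHGDIB, CNN2, EGR1, GPR183, IL2RA, LEF1 and TPM4, named after their values were seen, and 3 of them (ACTG1, CNN2 and TPM4) encode actin or actin-binding proteins. The AP-1 motif was in 6.67% of those that rose and 1.72% of those that fell, against 3.43% of all tested. The NF-kB motif was in 6.67% of those that rose and 9.48% of those that fell, against 5.68% of all tested. The E-box CACGTG, the site of MYC and MAX among others, was in 7.5% of those that rose and 11.2% of those that fell, against 9.45% of all tested. A match is a description of these windows and shows no binding.

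Feedback on ERK and diacylglycerol gave 1 call in each list, which at 1.55% rising over all tested genes does not by itself set either list apart. Of 13 tested ERK feedback genes DUSP6 alone rose, and none fell. Their median log2 change was 3.33, against 0.17 over all tested genes. All PMA sums lay above all DMSO sums for 6 of the 13, against 13.9% over all tested genes. Of 21 listed members 6 had no DMSO count and could be tested through PMA sums alone, so these values do not set the list apart either. DUSP6, a phosphatase that switches ERK off, stood at 64.3, 95.7 and 222 CPM with PMA, against 0, 0 and 5.76 CPM with DMSO, all 36 DMSO counts coming from 1 cell. Its log2 change was 7.28 ± 1.12 (SE, edgeR adjusted p = 0.0294). DUSP2 averaged 202.3 ± 110.7 CPM with PMA and 30.2 ± 10.3 CPM with DMSO and did not pass (edgeR adjusted p = 0.0753). Among 19 tested protein kinase C isoforms and diacylglycerol sensors the gene that rose was DGKA, the kinase that removes diacylglycerol, at 433, 549 and 508.2 CPM with PMA, against 84.3, 96.9 and 59.3 CPM with DMSO. Its log2 change was 2.65 ± 0.21 (SE, edgeR adjusted p = 0.00285), while PRKCQ, the isoform typical of T cells, averaged 43.5 ± 7.78 CPM with PMA and 31.1 ± 14.7 CPM with DMSO (edgeR adjusted p = 0.638).

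Of 18 tested NF-kB subunits and inhibitors 0 rose and 0 fell, with a median log2 change of 1.02. With 2.91% of all tested genes called, a list of this size can hold no call without standing apart from other genes. TNFAIP3, the A20 feedback inhibitor, stood at 68.8, 87.7 and 76.1 CPM with PMA, against 0, 18.2 and 16 CPM with DMSO, all PMA sums above all DMSO sums, with a log2 change of 3.58 ± 1.38 (SE, edgeR adjusted p = 0.286). NFKBIA, the inhibitor IkB alpha, overlapped between treatments at 74.6, 72.3 and 33 CPM with PMA, against 24.3, 35.7 and 35 CPM with DMSO (edgeR adjusted p = 0.484). Of 13 NFAT and calcineurin genes 0 passed, again near that share. A miss of the threshold with 3 plates does not show that these genes were alike.

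Genes of the T cell receptor rose together. Of 10 tested receptor chains and CD3 subunits 6 rose and 0 fell, against 1.55% and 1.37% over all tested genes, with a median log2 change of 1.58. All PMA sums lay above all DMSO sums for 7 of the 10, against 13.9% over all tested genes. TRBC1 (chromosome 7, 142791694 to 142793368, plus strand), the constant region of the beta chain, stood at 10237, 7809 and 8948 CPM with PMA, against 2273, 1134 and 2416 CPM with DMSO. Its log2 change was 2.28 ± 0.17 (SE, edgeR adjusted p = 0.00256). TRAC, the alpha constant region, also rose, and stood at 406, 471 and 296 CPM with PMA, against 35.6, 1.5 and 6.24 CPM with DMSO, and reads were seen in 63 of 79 cells with PMA and 5 of 35 with DMSO. The variable segments TRAV8-4 and TRBV12-3 moved with them, by 5.67 and 2.49 on the log2 scale, and since each is spliced to its constant region they are not separate evidence. TRBV12-3 also shares most of its sequence with a neighbouring segment, so its reads are uncertain. The 6 calls were 4 without P2769, 2 without P2770 and 4 without P2771.

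Adaptors of the signalling scaffold beneath the receptor rose as well. LAT (chromosome 16, 28984826 to 28990783, plus strand), the membrane adaptor on which the signalling complex assembles, stood at 485, 555 and 535 CPM with PMA, against 16.6, 29.6 and 33.4 CPM with DMSO. LAT reads were in 79 of 79 cells with PMA and 14 of 35 with DMSO, and the log2 change of 4.36 ± 0.24 (SE, edgeR adjusted p = 0.00112) held without each plate. LCP2, the SLP-76 adaptor that partners LAT, stood at 169.6, 171.6 and 118.7 CPM with PMA, against 16.7, 4.8 and 12.3 CPM with DMSO, a log2 change of 3.88 ± 0.48 (SE, edgeR adjusted p = 0.0147). SKAP1, an adaptor linking the receptor to integrins, and PTPRC, the phosphatase CD45, rose by 2.74 and 1.88 on the log2 scale (edgeR adjusted p = 0.0241 and 0.0039). In all, 4 of 21 tested members of this group rose and 0 fell, against 1.55% and 1.37% over all tested genes. The kinase LCK did not pass, at 760.3 ± 25.1 CPM with PMA and 706.7 ± 38.8 CPM with DMSO (SD, n = 3 plates each), nor did ZAP70, at 80.8 ± 25.3 CPM with PMA and 121.4 ± 16.6 CPM with DMSO, with PMA sums below all DMSO sums.

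Among other lineage and trafficking receptors the direction was mixed. CD96, an adhesion receptor of T and natural killer cells, averaged 134.1 ± 13.1 CPM with PMA and 24.6 ± 16.3 CPM with DMSO, whereas CD99 averaged 476 ± 55.5 CPM with PMA and 921 ± 40.6 CPM with DMSO, and both passed (edgeR adjusted p = 0.0299 and 0.0203). CXCR4, the chemokine receptor that also serves as an HIV coreceptor, fell, at 186.6, 110.2 and 109.7 CPM with PMA, against 496, 464 and 760.3 CPM with DMSO. SELPLG, the P-selectin ligand, fell, with a log2 change of -2.34, while ITGAE, the integrin alpha E chain, rose by 1.98. GPR183, an oxysterol receptor that guides lymphocyte migration, rose by 7.27 ± 1.30 (SE, edgeR adjusted p = 0.045), but reads were in 17 of 79 cells with PMA and 1 of 35 with DMSO. Of 32 listed cytokine genes 3 were tested and 2 of those rose, against 1.55% over all tested genes. With DMSO 26 of the 32 had no count, TNFSF10 among them. TNFSF10 thus entered the test through its PMA sums alone, and the share does not set the list apart. TNFSF10 (TRAIL) was at least 367-fold higher, though at 7.52 and 2.44 CPM in the DMSO cells of P2449 and P2458. IL16 stood at 212, 232 and 190.3 CPM with PMA, against 4.21, 2.25 and 0 CPM with DMSO. IL2 itself averaged 1.91 ± 1.62 CPM with PMA and 0 ± 0 CPM with DMSO, too low to be tested.

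**Figure D3:**
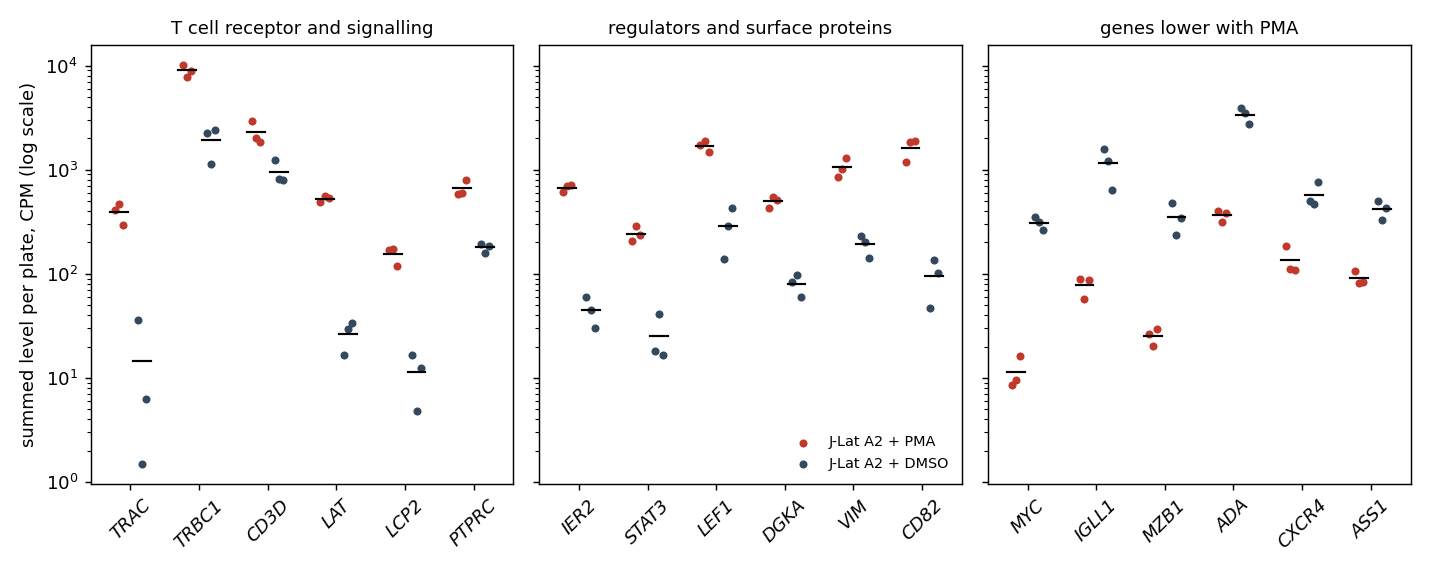
Summed level per plate (CPM, log axis) of 18 genes with PMA (red, left) and DMSO (dark blue, right) in J-Lat A2 cells; each point is a plate and the bar is the mean over 3 plates. In each of the 18 genes the 3 PMA points lie wholly above or wholly below the 3 DMSO points, as for LAT (485 to 555 CPM with PMA, against 16.6 to 33.4 CPM with DMSO).

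Transcription factors of the T lineage and of cytokine signalling were also among the called genes. LEF1, a WNT pathway factor of immature T cells, stood at 1739, 1871 and 1490.5 CPM with PMA, against 139.9, 285 and 429.8 CPM with DMSO, a log2 change of 2.71 ± 0.34 (SE, edgeR adjusted p = 0.0153). STAT3, which carries signals of the interleukin-6 family, stood at 206, 285 and 234 CPM with PMA, against 18.2, 41.3 and 16.5 CPM with DMSO, and its change of 3.37 held without each plate. TOX, a nuclear factor of T cell development and exhaustion, and SOX4, a factor of precursor cells, rose by 1.40 and 1.49 on the log2 scale. Each was the lone member to rise in its list: LEF1 of 18 leukaemia factors, STAT3 of 19 STAT, JAK and SOCS genes, TOX of 11 ID, KLF and repressor factors and SOX4 of 12 V(D)J and precursor genes. With 1.55% of all tested genes rising, 1 such call does not by itself set a list of this size apart. In the same order the list medians were 0.29, 2.26, 1.81 and -1.71 on the log2 scale, against 0.17 over all tested genes. All PMA sums lay above all DMSO sums for 6, 8, 5 and 2 tested members, against 13.9% over all tested genes. Members without a DMSO count could be tested through PMA sums alone, so no list result is drawn from these values. STAT5A, a mediator of interleukin-2 signals, averaged 81.2 ± 68.1 CPM with PMA and 3.15 ± 5.46 CPM with DMSO and fell short (edgeR adjusted p = 0.0691).

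Actin cytoskeleton genes gave more calls than any other list here, with 19 of 43 tested members rising and 0 falling. Over all tested genes 1.55% rose and 1.37% fell. The list's median log2 change was 1.09, and 27 of 43 had all PMA sums above all DMSO sums, against 13.9% over all tested genes. TMSB4X (chromosome X, 12975108 to 12977227, plus strand), thymosin beta 4, which sequesters actin monomers, stood at 31292, 17552 and 17008 CPM with PMA, against 4254, 2534 and 2549.5 CPM with DMSO. It was detected in every cell, and its log2 change of 2.80 ± 0.06 (SE, edgeR adjusted p = 3.36e-05) had the smallest adjusted p of all tested genes. EVL, which promotes filament growth, stood at 105.05, 175.3 and 134.3 CPM with PMA, against 10.5, 21.5 and 8.47 CPM with DMSO, and MYO1G, a membrane-bound myosin of blood cells, rose by 2.68 ± 0.30 (SE, edgeR adjusted p = 0.0104). ACTB, beta-actin, averaged 25791 ± 4656 CPM with PMA and 11503 ± 2763 CPM with DMSO, a log2 change of 1.18 ± 0.06 (SE, edgeR adjusted p = 0.000843). The others were MYL12A, ARPC2, MSN, TPM4, PFN1, TMSB10, MYL6, CORO1A, ACTR3, TPM3, ARPC1B, LCP1, ARPC5, ACTG1 and ARPC3, among them 5 subunits of the ARP2/3 complex that branches filaments. Without P2769, P2770 and P2771 the count was 11, 5 and 12. VIM, the intermediate filament vimentin, rose in the same cells, at 850.4, 1013 and 1295 CPM with PMA, against 232, 201.8 and 140.5 CPM with DMSO.

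**Figure D4:**
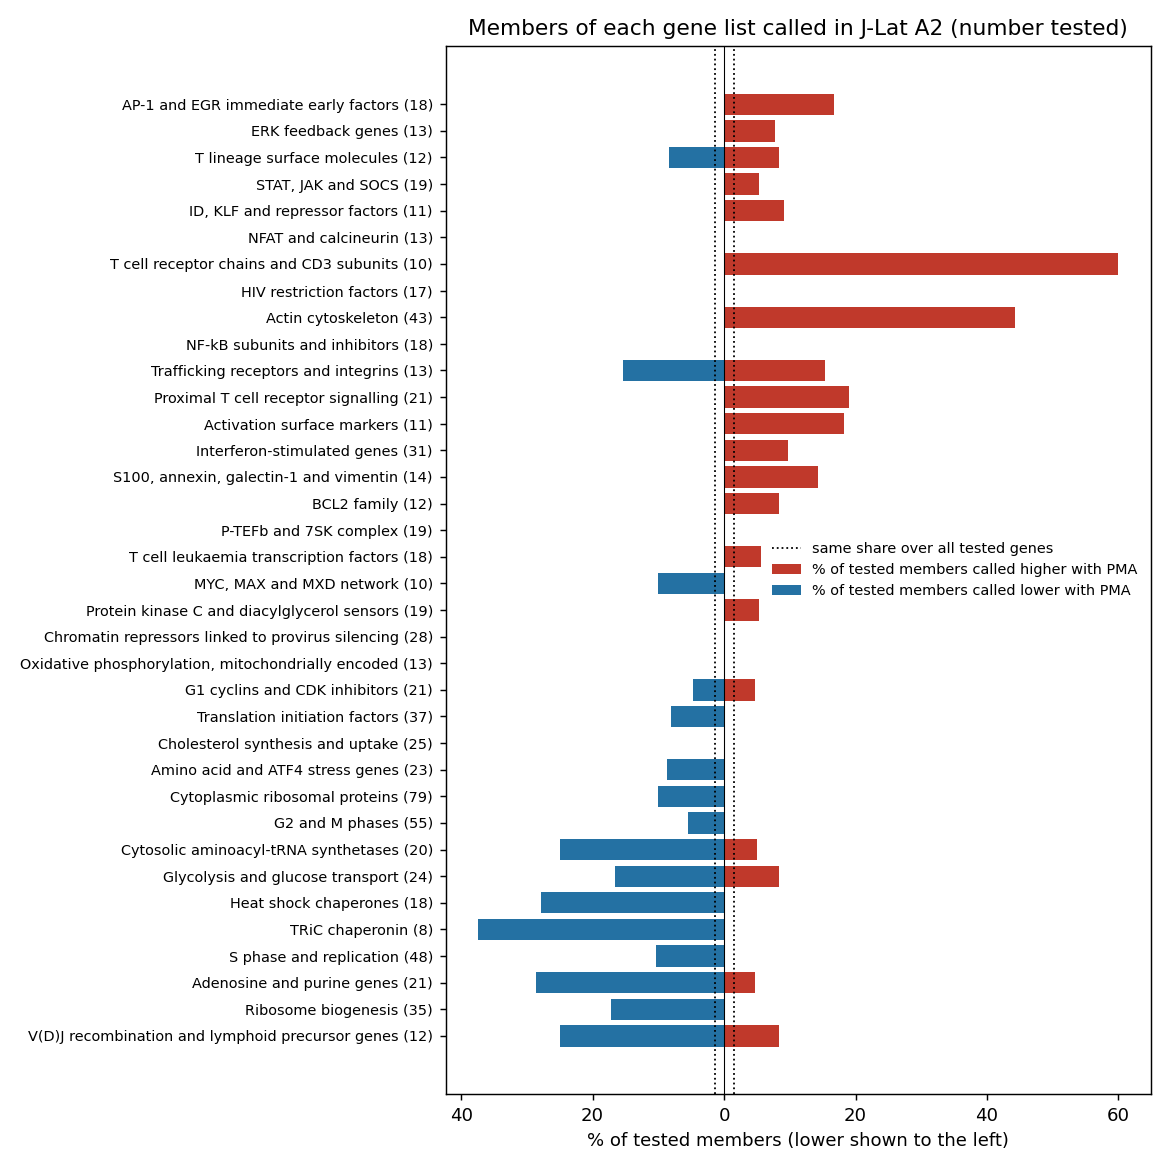
Share of tested members called higher (red, to the right) or lower (blue, to the left) with PMA for the 36 lists with at least 8 tested members, ordered by median log2 change, with the number tested in brackets. Dotted lines give the same shares over all tested genes, 1.55% and 1.37%. T cell receptor chains (6 of 10) and actin genes (19 of 43) reach farthest to the right.

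Several genes without a DMSO count rose, among them genes best known from other tissues. MB (chromosome 22, 35606764 to 35637951, minus strand), the muscle oxygen carrier myoglobin, stood at 773, 365 and 561 CPM with PMA, against 0 CPM on each plate with DMSO, at least 3589-fold higher, and was seen in 52 of 79 cells with PMA and 0 of 35 with DMSO. HDC (chromosome 15, 50241947 to 50266026, minus strand), the enzyme that makes histamine, stood at 144.1, 477 and 301 CPM with PMA, against 0 CPM on each plate with DMSO, at least 2108-fold higher. HDC is also on the mast cell and basophil list, of which 3 of 8 markers had a count with PMA and 1 with DMSO. The summed level of that list was 163.7 to 477 CPM with PMA, against 0 to 3.3 CPM with DMSO, while TPSAB1, TPSB2, FCER1A, MS4A2 and KIT were at 0 in both. The part of such markers in these results was not tested. KRT1, an epidermal keratin, stood at 110.9, 107.3 and 118.2 CPM with PMA, against 0 CPM on each plate with DMSO, and ANTXR2, an anthrax toxin receptor, at 72.6, 60.4 and 113.7 CPM with PMA, against 0 CPM on each plate with DMSO. The other genes of this kind among the 15 largest rises were SGK1, a kinase downstream of PI3K, PGLYRP4, CD226, SEMA4A and GBP5, with bounds from 285- to 429.9-fold. In the DMSO cells of P2449 and P2458 SGK1 stood at 4.93 and 5.21 CPM, GBP5 at 7.52 and 0 CPM and KRT1 at 0.203 and 5.04 CPM, so bounds of that size do not hold against those cells. MB, HDC, ANTXR2, PGLYRP4 and SEMA4A had no read there.

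S100A9, a calcium-binding protein abundant in myeloid cells, also passed but rests on 1 cell. It stood at 6.17, 2.6 and 398 CPM with PMA, against 0 CPM on each plate with DMSO, and 97.6% of its PMA counts came from that cell. Of 15 myeloid markers 5 had a count with PMA and 1 with DMSO, with sums per plate of 3.68 to 404 CPM with PMA and 0 to 2.08 CPM with DMSO, and CD14, CSF1R, MPO and SPI1 were at 0 in both. Of 11 natural killer and cytotoxic markers 5 had a count with PMA and 4 with DMSO, with sums per plate of 84.8 to 135.5 CPM with PMA and 3.9 to 22.4 CPM with DMSO. With PMA most of that was GZMA, granzyme A, at 70.8, 115.3 and 55.5 CPM with PMA, against 4.76, 2.4 and 0.16 CPM with DMSO, a log2 change of 5.50 ± 0.89 (SE, edgeR adjusted p = 0.0336).

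MYC led the genes that fell by size of the fitted change, apart from DNTT. MYC, the growth-promoting factor, stood at 8.61, 9.52 and 16.2 CPM with PMA, against 349, 316 and 265 CPM with DMSO. Reads were in 9 of 79 cells with PMA and 30 of 35 with DMSO, and the log2 change was -4.80 ± 0.34 (SE, edgeR adjusted p = 0.00214). Of 12 tested V(D)J and lymphoid precursor genes 3 fell and 1 rose (SOX4), with a list median of -1.71. Over all tested genes 1.37% fell and 1.55% rose. IGLL1 (chromosome 22, 23573125 to 23580308, minus strand), a surrogate light chain component, stood at 89.4, 57.3 and 86.5 CPM with PMA, against 1582, 1224 and 637 CPM with DMSO, and MZB1, a chaperone of the secretory pathway in B lineage cells, at 26.7, 20.1 and 29.2 CPM with PMA, against 482, 234 and 341 CPM with DMSO. DNTT (chromosome 10, 96304396 to 96338564, plus strand), the terminal transferase that adds bases at V(D)J joints, stood at 0 CPM on each plate with PMA, against 39.7, 37.1 and 74.7 CPM with DMSO, at least 614-fold lower, but with DMSO its reads were in 12 of 35 cells. RAG2, which encodes a subunit of the recombinase, averaged 1.08 ± 1.88 CPM with PMA and 46.7 ± 51.4 CPM with DMSO without passing (edgeR adjusted p = 0.254). The 3 calls were 3, 2 and 2 without P2769, P2770 and P2771.

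Purine metabolism was led by ADA (chromosome 20, 44619522 to 44652233, minus strand), adenosine deaminase, which stood at 405, 316 and 382 CPM with PMA, against 3879, 3499.8 and 2743 CPM with DMSO. Its log2 change was -3.19 ± 0.15 (SE, edgeR adjusted p = 0.000843), and it passed without each plate. SLC29A1, a nucleoside transporter, fell as well, at 25.6, 18.7 and 43.5 CPM with PMA, against 112.7, 256 and 172.4 CPM with DMSO, with PPAT, the first enzyme of purine synthesis, at -1.84 on the log2 scale. APRT, IMPDH2 and PAICS completed the 6 of 21 tested members that fell, whereas PNP, purine nucleoside phosphorylase, rose, at 600.0, 544 and 582 CPM with PMA, against 224, 209.9 and 182.4 CPM with DMSO. For comparison, 1.37% of all tested genes fell and 1.55% rose. The list median was -0.65, and leaving out any 1 plate left 1 gene called lower. ASS1, which makes argininosuccinate, fell outside the list, at 106.5, 81.8 and 83.3 CPM with PMA, against 502.2, 327 and 428 CPM with DMSO, and TSHR, FAT1, MAP1A, USP7, MYO7B, TIMM44 and SPNS3 were the other genes among the 15 largest falls.

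Some genes of ribosome production and translation fell, though most members of these lists did not pass. Over all tested genes 1.37% fell, 1.55% rose and 9.33% had all PMA sums below all DMSO sums. Of 35 tested ribosome biogenesis genes 6 fell and 0 rose, the list median was -0.91, and 19 had all PMA sums below all DMSO sums. NOLC1, a nucleolar phosphoprotein, stood at 101.9, 108.1 and 134.9 CPM with PMA, against 439, 562 and 351 CPM with DMSO, and NCL, nucleolin, at 464, 922 and 747 CPM with PMA, against 1258, 1934 and 1670.2 CPM with DMSO. NOP56, DKC1, LYAR and NPM1 were the others that fell. Of 79 ribosomal protein genes 8 fell and 0 rose, with a list median of -0.28, and 0 were called once any plate was left out. Among 37 initiation factors 3 fell and 0 rose, with log2 changes of -1.51 for EIF5A, -1.39 for EIF4EBP1 and -0.99 for EIF4A1. Of 20 cytosolic aminoacyl-tRNA synthetases 5 fell, among them FARSA at -1.32, and WARS1, the tryptophan enzyme that interferon also induces, rose, at 571, 588 and 573 CPM with PMA, against 284, 234 and 329.7 CPM with DMSO. The ribosome biogenesis count was 3, 0 and 4 without P2769, P2770 and P2771, and that of the synthetases 0 each time.

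Chaperone and replication genes that passed also fell. The shares to set beside these lists are again 1.37% falling and 9.33% with all PMA sums below all DMSO sums over all tested genes. Of 18 heat shock chaperones 5 fell and 0 rose (HSPD1, HSPE1, HSP90AB1, HSP90AA1 and HSPA8), HSPD1, the mitochondrial HSP60, standing at 987, 783 and 892 CPM with PMA, against 2359.8, 1970.3 and 1985 CPM with DMSO. Of 8 TRiC chaperonin subunits 3 fell, with log2 changes of -0.91 for CCT5, -0.62 for TCP1 and -0.60 for CCT7. Among 48 S phase and replication genes 5 fell, and 20 had all PMA sums below all DMSO sums, with POLD2, a DNA polymerase delta subunit, at 218, 239 and 217 CPM with PMA, against 601, 523.7 and 585 CPM with DMSO. MCM4 and MCM7, subunits of the replicative helicase, SLBP and GMNN were the others. Of 55 genes of G2 and M phases 3 fell (PRC1, BUB1B and BIRC5), and MKI67, the proliferation antigen, averaged 52 ± 23 CPM with PMA and 57.6 ± 24.3 CPM with DMSO (edgeR adjusted p = 0.884). Without P2769, P2770 and P2771 the chaperone count was 2, 0 and 2, the TRiC count 0 each time and the S phase count 1, 0 and 0. Cell cycle phase was not called per cell, so a shift in the share of cycling cells cannot be told apart from a change within cells.

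Central metabolism was split. LDHA, which reduces pyruvate to lactate, stood at 2065, 1889 and 2400.4 CPM with PMA, against 4322, 4493 and 3863 CPM with DMSO (edgeR adjusted p = 0.0135). ENO1, LDHB and ALDOA also fell, PKM rose by 0.92 with overlapping sums, and ALDOC rose by 5.04 with 41.4% of its PMA counts in 1 cell. The serine pathway enzymes PSAT1 and PHGDH fell, at 712.5 ± 151.5 CPM with PMA and 1655 ± 20.6 CPM with DMSO for PSAT1 (SD, n = 3 plates each). Of 25 cholesterol genes and of 13 mitochondrially encoded genes 0 were called, near the 2.91% called over all tested genes, and MT-CO1, a subunit of cytochrome oxidase, stood at 21176, 15068 and 14610.1 CPM with PMA, against 15674, 14932 and 12592 CPM with DMSO.

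For host genes often linked to proviral silence or restriction the calls were too few to set the lists apart from the 2.91% called over all tested genes. Calls numbered 0 of 28 chromatin repressors (median log2 change 0.04), 0 of 19 genes of P-TEFb and the 7SK complex (0.44) and 0 of 17 restriction factors (1.36). HDAC2, a histone deacetylase, stood at 642, 507.9 and 534 CPM with PMA, against 355, 435 and 511.5 CPM with DMSO, overlapping between treatments, and CDK9, the kinase of P-TEFb, averaged 54.9 ± 13.6 CPM with PMA and 15.6 ± 15.1 CPM with DMSO (edgeR adjusted p = 0.215). SERINC3, which limits virion infectivity, averaged 320.1 ± 8.78 CPM with PMA and 111.8 ± 69.6 CPM with DMSO (edgeR adjusted p = 0.076). Of 31 interferon-stimulated genes 3 rose and 0 fell, against 1.55% and 1.37% over all tested genes. HLA-E, a ligand of natural killer receptors, stood at 101.2, 100.7 and 125.4 CPM with PMA, against 21.1, 14.7 and 20.8 CPM with DMSO. GBP5, also among the 3, had no DMSO count and entered the test through its PMA sums. Once any plate was left out 0 were called. A miss of the threshold with 3 plates again does not show that genes were alike.

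The response was then set against that of parental Jurkat cells on the same plates, in 1 fit of 12 sums over 10718 genes. Of the 292 genes 287 had the same sign in Jurkat and 216 were called there in the same direction, which is 74% of the 292 and 39.8% of the 543 genes called in Jurkat, where 5.07% of tested genes were called. None was called in the opposite direction. The 292 came from the fit of J-Lat A2 sums alone, over 10031 genes, and the Jurkat calls from the fit of 12 sums. The 2 sets of calls therefore differ in the fit behind them. For that reason 39.8% does not measure how much of the Jurkat response was absent from J-Lat A2. No same-sign share over all tested genes is given for comparison. HDC stood at 303, 279 and 329.9 CPM with PMA, against 0 CPM on each plate with DMSO in Jurkat, with reads in 20 of 36 PMA cells, and LAT at 707.6, 606 and 691 CPM with PMA, against 62.2, 88.8 and 65.7 CPM with DMSO. The difference between the lines passed for 2 genes (0.0187% of those tested), ADA and TMSB4X, while 586 genes stood at an unadjusted p under 0.05.

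ADA fell more in J-Lat A2. In Jurkat it stood at 982, 1119.7 and 892 CPM with PMA, against 3564, 2979.6 and 3477 CPM with DMSO, a log2 change of -1.74 ± 0.14 (SE, edgeR adjusted p = 3.5e-05), and the difference between lines was -1.46 ± 0.20 (SE, edgeR adjusted p = 0.0495). TMSB4X rose more in J-Lat A2. In Jurkat it stood at 24129, 12965 and 13301 CPM with PMA, against 6360.4, 4117 and 3663 CPM with DMSO, a log2 change of 1.81 ± 0.07 (SE, edgeR adjusted p = 1.52e-07), and the difference was 0.98 ± 0.10 (SE, edgeR adjusted p = 0.00503). Both differences fell short of the threshold whenever a plate was left out, when 0 genes passed. For HIVmini the difference did not pass (edgeR adjusted p = 0.091), and with 1 and 2 counts in Jurkat no fold is given there.

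**Figure D5:**
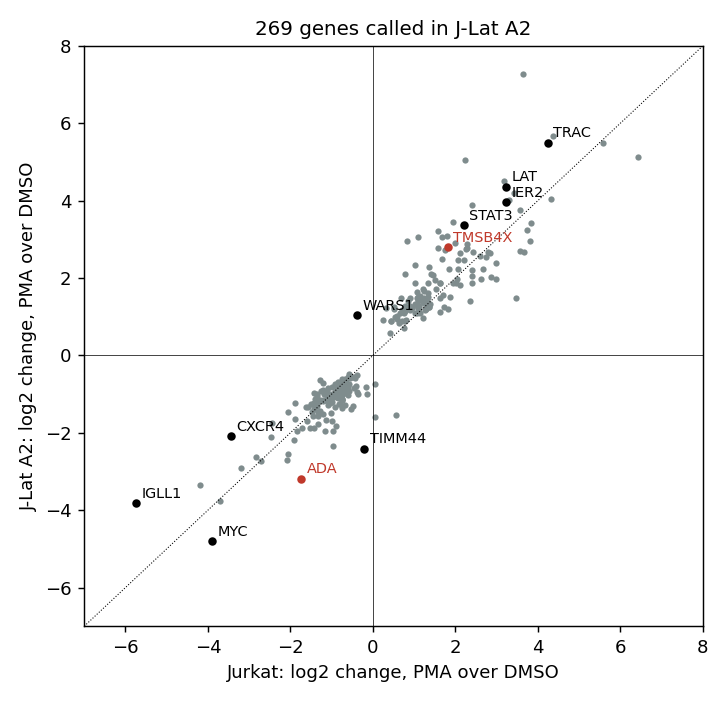
Log2 change with PMA over DMSO in J-Lat A2 (vertical axis) against that in Jurkat (horizontal axis) for 269 genes called in J-Lat A2. They had more than 3 counts in each J-Lat A2 treatment and a Jurkat change within the plotted range, and HIVmini was left out. The dotted line marks equal change. Most points lie near the line, and ADA and TMSB4X (red) are the 2 genes whose difference between lines passed the test.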

How the data were processed

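Full-length cDNA of sorted single wells was amplified without molecular identifiers, per the labels' protocols. The authors deposited expected counts per gene and well (20302 features), not divided by depth, made with Salmon 1.5.1, alevin and GRCh38.p13 per the submitters' processing notes. The annotation and read filters were not stated there. Of the values above 0, 13.7% were not whole. Doublets were not looked for.

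Estimated counts of kept wells were summed by treatment and plate and rounded. edgeR 4.0.16 (R 4.3.3) was run with TMM, filterByExpr and a two-sided quasi-likelihood F test with plate as a block (2 residual and 4.3 prior degrees of freedom). Each SE is the absolute log2 change divided by the square root of F. It therefore restates the test and is unreliable where a group has few counts. Plates pair the samples, since both treatments were sorted onto each plate per the titles. Deviations of the 2 sums of a plate correlated at 0.229, 0.138 and 0.077 over 5800 genes. The test called 155 genes higher and 137 lower. The difference between lines was tested as an interaction in 12 sums. Each plate sum allowed a level of 0.22 to 0.267 CPM with PMA and 0.397 to 0.5 CPM with DMSO where no count was found, taking a floor of 3 counts; over all plates this was 0.082 CPM with PMA and 0.15 CPM with DMSO. With 3 plates a side an exact permutation test cannot go below p = 0.1, and paired by plate not below 0.25, so none was used. Alternatives were DESeq2 1.42.0, its size factors, no filter, no block, all wells, all 18 sums, limma 3.58.1 on log2(mean CPM + 1) with equal weight per cell, and leaving out each plate. Genes named were HIVmini, the 15 called genes with the largest change each way (mean of at least 20 CPM), up to 4 called members of each of 43 lists (where none was called, the 2 with the highest level) and up to 5 for the interaction, and the text adds members where a list needs them. Members and lists were chosen with earlier results of these data known. Coordinates are GENCODE release 29 (GRCh38), and promoters RefSeq. Statistics were tested on simulated data.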

Additional observations from a re-analysis of the deposited data

Results flagged for a closer look

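The response to PMA differed between J-Lat A2 and Jurkat cells by the test of the difference in 2 genes. The log2 difference, J-Lat A2 minus Jurkat, was -1.46 for ADA and 0.98 for TMSB4X, and both passed the interaction test. WARS1 is given for its direction alone, higher with PMA on all 3 plates in J-Lat A2 and lower on all 3 in Jurkat. In Jurkat it stood at 190.4, 174.8 and 191.7 CPM with PMA, against 237, 267 and 222 CPM with DMSO, and the log2 difference of 1.41 ± 0.23 (SE, edgeR adjusted p = 0.192) did not pass, so a difference is not shown for it. No cause was tested for any of the 3.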

How the results depend on the processing

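None of the 100 named genes that passed changed sign under any alternative run. Against 292 genes called (2.91% of those tested), DESeq2's size factors gave 310, keeping all wells 294 and no filter on low counts 356. DESeq2's Wald test called 22.6% of tested genes (1301 higher and 965 lower), and all 18 sums in 1 fit 4.37% (275 and 226). Those 18 sums include Jurkat cells and wells of both lines given SAHA, another drug, on the same plates. Weighting each cell equally with limma left 0.0199%, or 2 genes, both higher and 0 lower, the smallest adjusted p being 0.0409, with 1641 genes at an unadjusted p under 0.05. Without the replicate block for plate 250 were called (160 and 90), 200 of them shared. Leaving out 1 plate gave 0.297 to 1.07% of tested genes, 25 to 80 higher and 5 to 31 lower. Of the 100 named genes that passed, 49, 18 and 39 passed without P2769, P2770 and P2771, 77 without the block and 2 with equal weight per cell. Those passing without every plate in turn numbered 16 (ADA, ASS1, CD69, HDC, HIVmini, IER2, IGLL1, IL2RA, LAT, MB, MYC, MYL12A, MZB1, STAT3, TMSB4X and TRBC1). The 2 genes whose response differed between lines became 1 with DESeq2's size factors, 0 without the block and 0 to 0 when a plate was left out. Cells with a HIVmini read made up 67.3 to 73.6% with PMA and 4.35 to 16.7% with DMSO when a plate was left out. Thinned to 100000 reads they were 67.5% with PMA and 2.86% with DMSO, and at 100 CPM or more 62% with PMA and 0% with DMSO. Why the counts moved was not tested, beyond the smaller number of plates. The sums from 35 DMSO cells limit what a low gene can show.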

Other observations

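J-Lat A2 cells with DMSO were also sorted on 2 plates that took no part in the comparison (59 kept cells, on plates P2449 and P2458). Of the 49 named genes that rose with PMA, 48 were lower there than in all 3 PMA sums, and of the 51 that fell 48 were higher there. The genes were chosen by those same PMA sums, so these counts are not independent support, and no share over all tested genes was taken. Levels on the 2 plates were not TMM-normalised, unlike the PMA sums. Of the 14 named genes that rose and had no DMSO count, 8 had no read in those cells either, while CD226, EGR1, GBP5, KRT1, SGK1 and TNFSF10 had reads there, at up to 7.52 CPM. These plates held no PMA cells, so plate and treatment cannot be told apart in this comparison.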
